A study of Mus musculus with 30 samples.

Results

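The genes described here are 9 transcription regulators of muscle fibre type and oxidative capacity: Maf, Tbx15, Six4, Eya1, Vgll2, Sox6, Ppargc1a, Esrra and Esrrg. They were listed by name and found by Ensembl gene ID in a count table of mouse diaphragm RNA, 9 of 9 among 33076 genes. All 9 passed the filter on low counts in each fit, which tested 15735 genes in perisynaptic muscle, 15526 in extrasynaptic muscle and 16138 when both regions were fitted together. The diaphragm pieces came from 15 male mice, each giving a perisynaptic library (muscle with neuromuscular junctions) and an extrasynaptic library (muscle without them), 30 libraries in all. SBMA mice carried BACfxAR121, a floxed transgene for the human androgen receptor with the expanded polyglutamine tract of spinal and bulbar muscular atrophy. Control mice were HSA-Cre;BACfxAR121 littermates, in which Cre driven by the human skeletal actin promoter removes the transgene in muscle fibres. Every mouse therefore carried the transgene outside muscle, and an effect of Cre itself cannot be told apart from that of losing the transgene in muscle. At 15 weeks there were 4 SBMA and 3 control mice, and at 26 weeks 4 SBMA and 4 control mice.

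The gene programmes of adult muscle fibres range from fast glycolytic to slow oxidative, with fast oxidative fibres between, and much of this is set by transcription. In mouse, the large Maf factors switch on Myh4, the myosin heavy chain of the fastest (IIb) fibres, Tbx15 marks glycolytic fibres, and homeodomain proteins such as Six4 with Eya cofactors turn on fast genes. Sox6 represses slow genes in fast fibres, and Vgll2 is a cofactor of TEAD factors that is needed for the full slow programme in mouse. Ppargc1a encodes PGC-1α, the coactivator of mitochondrial biogenesis, which works through nuclear receptors such as ERRα (Esrra) and ERRγ (Esrrg).

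On GRCm38 with the GENCODE vM21 annotation, Maf (ENSMUSG00000055435) lies on chromosome 8 at 115682942-115707794, minus strand, and Tbx15 (ENSMUSG00000027868) on chromosome 3 at 99240381-99354259, plus strand. Six4 (ENSMUSG00000034460) lies on chromosome 12 at 73099609-73113456, minus strand, and Eya1 (ENSMUSG00000025932) on chromosome 1 at 14168954-14310235, minus strand. Vgll2 (ENSMUSG00000049641) is at 52022502-52028471 of chromosome 10, plus strand, and Sox6 (ENSMUSG00000051910) at 115470872-116038796 of chromosome 7, minus strand. Ppargc1a (ENSMUSG00000029167) is at 51454250-51567726 of chromosome 5, minus strand, Esrra (ENSMUSG00000024955) at 6910977-6921813 of chromosome 19, minus strand, and Esrrg (ENSMUSG00000026610) at 187608791-188214885 of chromosome 1, plus strand. The values count reads over a gene's exons. Esrra shares 73 exon bases with Trmt112 on the opposite strand, and Maf shares 401 with the antisense gene Gm15655. Trmt112 held 3672 counts over the 30 libraries against 204205 for Esrra, and Gm15655 held 275 against 73424 for Maf.

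Levels were compared as CPM, counts scaled to library size with TMM factors, and between genes as CPM per kilobase of exon. By the median over the 30 libraries, the order per kilobase was Vgll2 at 71.9, Esrra at 62.2, Tbx15 at 52.1, Ppargc1a at 41.4, Esrrg at 12.6, Maf at 10.3 and Sox6 at 6.93 CPM per kilobase, with Eya1 and Six4 both at 4.0. The ranges over libraries overlapped between all neighbours in this order. Ppargc1a had the widest spread, 12.0 to 137 CPM per kilobase, and Esrra the narrowest relative to its level, 52.8 to 73.2.

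**Figure D1:**
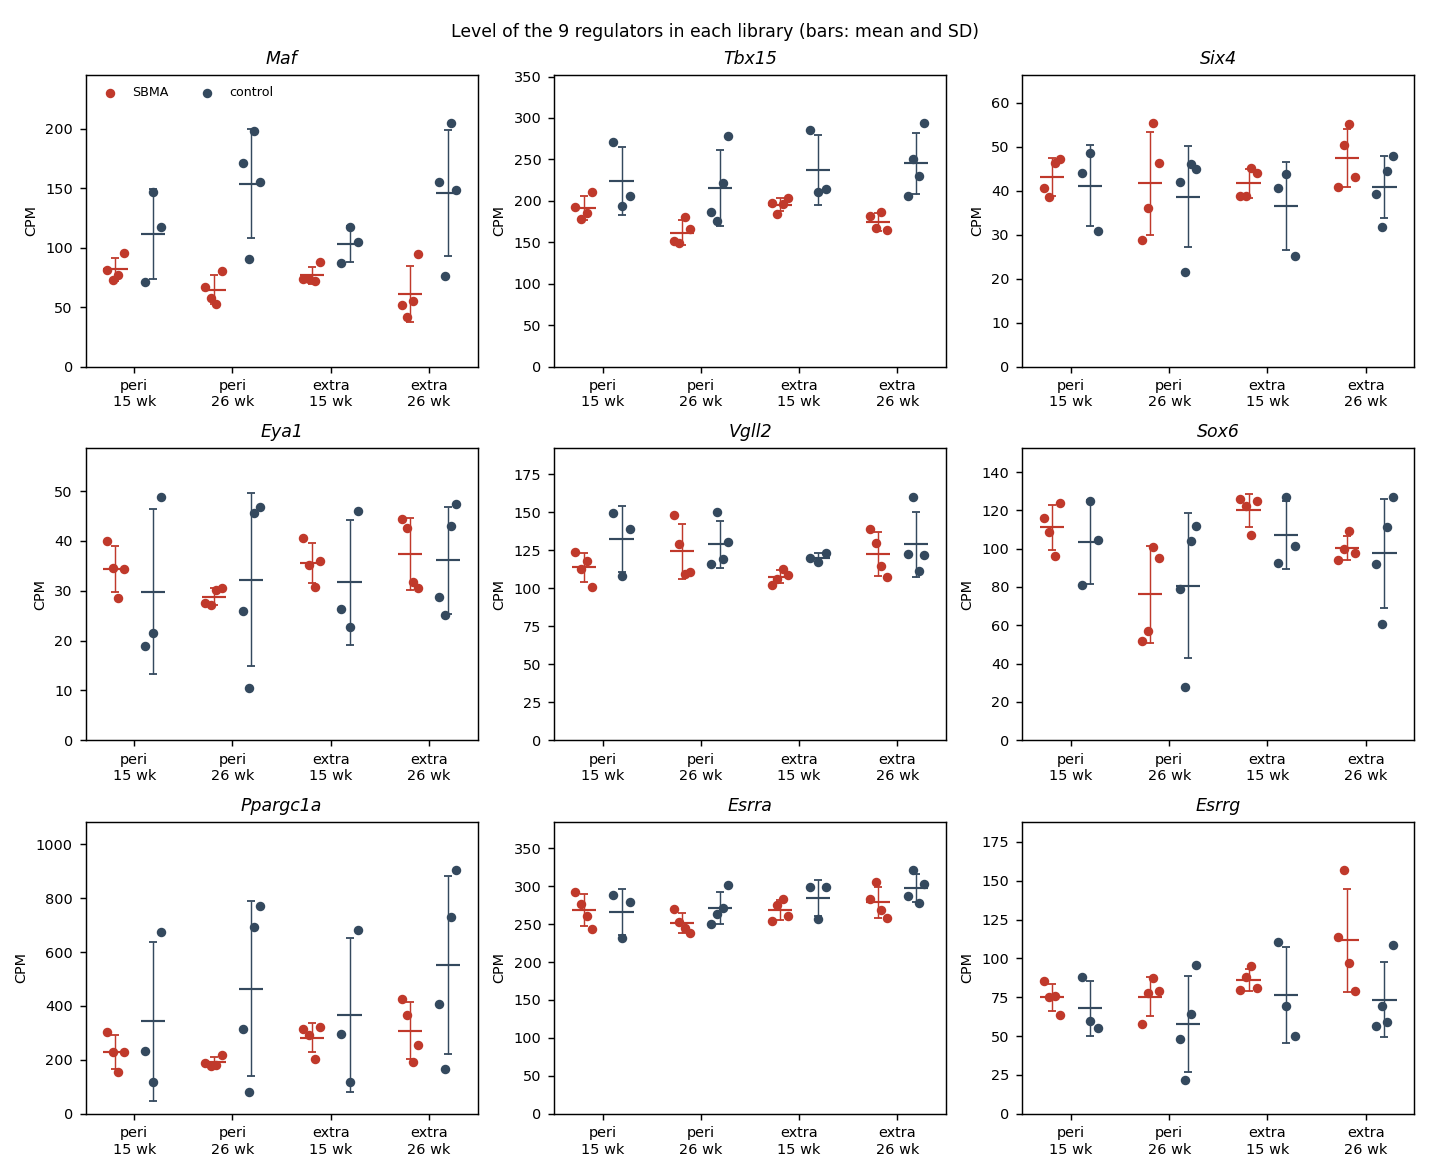
Level in CPM (y axis, from 0) of each of the 9 regulators in each of the 30 libraries, by region and age (x axis), SBMA in red left of control in blue, with bars for the group mean and SD. Maf was lower in SBMA muscle at 26 weeks, Ppargc1a was widely spread among the controls, and Esrra was nearly level throughout.

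The depth was 16280873 to 34694446 counts per library. One library stood apart: perisynaptic control replicate 2 at 26 weeks had the lowest CPM of all 30 for 5 of the 9 regulators (Six4, Eya1, Sox6, Ppargc1a and Esrrg). The summed level of 6 markers of skeletal muscle fibres was at least 37724 CPM in every library. That sum was lower in SBMA muscle, 39698 ± 2180.1 against 72929 ± 4966.8 CPM in perisynaptic muscle at 26 weeks (SD, n = 4 each). The 6 synaptic markers together averaged 296 ± 15.0 CPM in perisynaptic SBMA muscle against 167 ± 17.1 CPM in extrasynaptic SBMA muscle at 26 weeks (SD, n = 4 each), and 215 ± 17.7 against 65.6 ± 19.7 CPM in the controls of that age.

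Maf, a large Maf factor of the fast glycolytic programme, fell in SBMA muscle at 26 weeks in both regions. In perisynaptic muscle at 26 weeks, Maf had 67.0, 58.1, 53.0 and 80.5 CPM in SBMA mice against 172, 90.3, 199 and 156 CPM in controls. Every SBMA library was below every control library. Maf fell to 0.423 times the control level, a log2 fold change of -1.24 ± 0.23 (SE, edgeR quasi-likelihood test, adjusted p = 0.00234 over all genes). In extrasynaptic muscle at 26 weeks, Maf had 52.2, 42.1, 55.3 and 95.02 CPM in SBMA mice against 155, 76.3, 205 and 149 CPM in controls. Here the groups overlapped, since SBMA replicate 4 lay above control replicate 2. The log2 fold change there was -1.26 ± 0.26 (edgeR adjusted p = 0.00181). Maf stayed called in 8 of 8 fits that left out 1 animal in each region, with log2 fold changes of -1.43 to -1.10 in perisynaptic and -1.55 to -1.05 in extrasynaptic muscle. Within the 4 perisynaptic animals numbered 79 to 82 its log2 fold change was -1.06, with an edgeR adjusted p of 0.23.

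At 15 weeks Maf did not pass the test. In perisynaptic muscle it had 81.5, 73.1, 77.1 and 95.7 CPM in SBMA mice against 71.4, 147 and 117 CPM in controls, a log2 difference of -0.46 ± 0.25 (edgeR adjusted p = 0.77). In extrasynaptic muscle it had 73.8, 73.5, 72.2 and 87.8 CPM in SBMA mice against 87.5, 118 and 105 CPM in controls, -0.43 ± 0.27 on the log2 scale (edgeR adjusted p = 0.504). The groups overlapped in both regions. The difference between ages in the genotype effect, tested as an interaction, was -0.79 ± 0.34 in perisynaptic muscle (adjusted p = 0.546) and -0.83 ± 0.38 in extrasynaptic muscle (adjusted p = 0.299), so a larger effect at 26 weeks was not shown.

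Mafa, another large Maf factor, did not pass the test at 26 weeks, with log2 differences of -0.35 ± 0.32 in perisynaptic muscle (SE, edgeR adjusted p = 0.51) and -0.33 ± 0.27 in extrasynaptic muscle (edgeR adjusted p = 0.378).

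Maf is also known from macrophages, and macrophage markers moved in the same direction. The summed level of the 8 markers was 219 CPM in perisynaptic SBMA muscle at 26 weeks (178 to 269) against 287 CPM in controls (243 to 309), and 1 of 8 fell, Csf1r, by 0.52 on the log2 scale. In extrasynaptic muscle it was 177 CPM in SBMA mice (153 to 223) against 244 CPM in controls (215 to 304). There 5 of 8 fell, C1qa, C1qb, C1qc, Csf1r and Mrc1, by 0.38 to 0.74 on the log2 scale, and no marker of the list was at 0. Of all genes tested at 26 weeks, 5.97% were called lower in perisynaptic and 16.1% in extrasynaptic muscle. The lower direction was not particular to macrophage markers. Endothelial markers at 26 weeks summed to 388 CPM in SBMA against 514 CPM in control perisynaptic muscle, and to 391 against 496 CPM in extrasynaptic muscle. The muscle fibre markers were lower too. So were the mean sums of fibroadipogenic progenitor, mesothelial and Schwann cell markers in both regions at 26 weeks. The sums for the synaptic region and for muscle stem cells (satellite cells) were higher in both. Adipocyte markers averaged 19.8 against 29.6 CPM in perisynaptic and 85.2 against 74.2 CPM in extrasynaptic muscle, SBMA against control. The part of macrophages or of other cells in the Maf result was not tested. In such bulk RNA, fewer cells of a type and less RNA per cell cannot be told apart.

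Tbx15 was the other member that fell, in extrasynaptic muscle at 26 weeks. It had 181, 167, 187 and 164 CPM there in SBMA mice against 206, 250.3, 231 and 294 CPM in controls, with no overlap. The log2 fold change was -0.49 ± 0.11 (edgeR adjusted p = 0.00321). In perisynaptic muscle at 26 weeks, Tbx15 had 151, 149, 181 and 166 CPM in SBMA mice against 187, 176, 221 and 279 CPM in controls. The groups overlapped by 1 library each, and the log2 difference of -0.41 ± 0.14 missed the threshold (edgeR adjusted p = 0.0748). At 15 weeks the SBMA libraries were again all below the controls in extrasynaptic muscle, 184 to 203 against 211 to 286 CPM, and again the difference was not called (-0.28 ± 0.12, edgeR adjusted p = 0.279). Scaling by total counts alone gave Tbx15 a log2 difference of -0.27 in extrasynaptic muscle at 26 weeks, and its call was lost (edgeR adjusted p = 0.0554). The call was also lost within each run of animal numbers, at -0.38 (adjusted p = 0.0619) for animals 79 to 82 and -0.55 (adjusted p = 0.0558) for animals 95 to 98.

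These were the calls among the 9 members: 1 in perisynaptic and 2 in extrasynaptic muscle at 26 weeks, all lower in SBMA. Of all genes tested, 14% were called in perisynaptic muscle at 26 weeks (5.97% lower) and 32.2% in extrasynaptic muscle (16.1% lower), which leaves the counts of members near the background. At 15 weeks 0 of 9 were called in either region, where 0.21% of perisynaptic and 1.22% of extrasynaptic genes were. At an unadjusted p under 0.05 there was 1 member, Tbx15 in extrasynaptic muscle, and DESeq2 called 0 of 9 in either region. The median log2 fold change over the 9 members was -0.10 in perisynaptic and -0.07 in extrasynaptic muscle at 26 weeks, beside -0.016 and -0.031 over all genes tested.

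**Figure D2:**
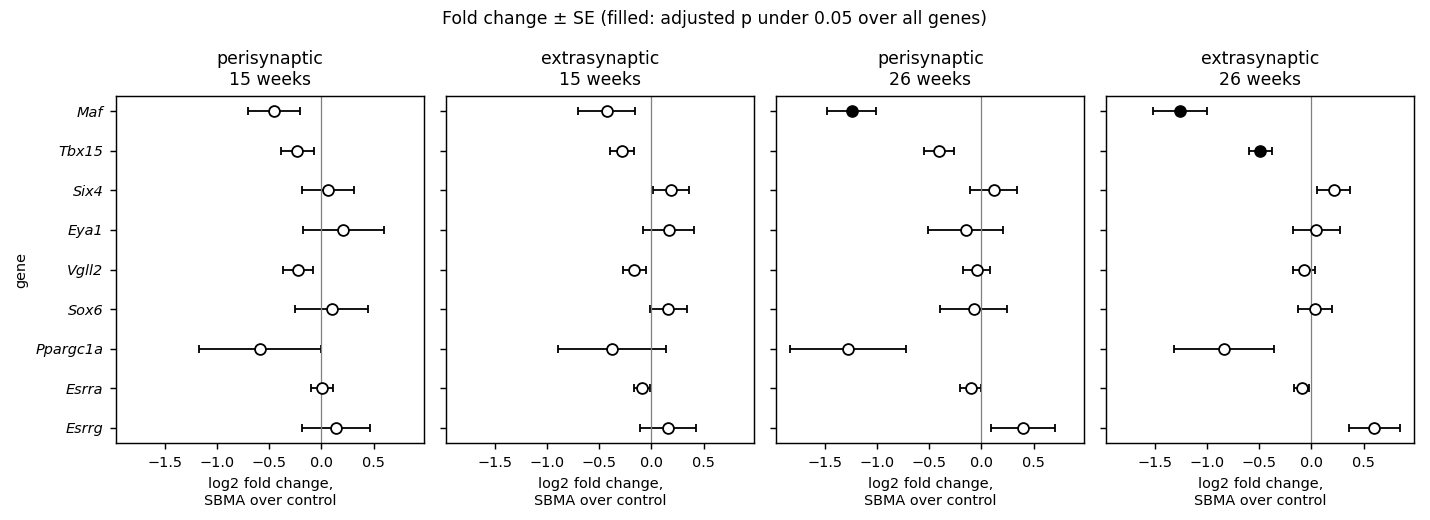
Log2 fold change of SBMA over control with its SE (x axis) for each of the 9 regulators (y axis) in 4 panels by region and age, filled where the adjusted p was under 0.05. Maf was called at 26 weeks in both regions and Tbx15 in extrasynaptic muscle alone; Ppargc1a had large estimates with wide errors.

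Six4 and Eya1, a homeodomain factor and the phosphatase cofactor of its family, did not pass the test in any region or age. Six4 lay between 21.6 and 55.3 CPM over the 30 libraries, and its log2 difference was 0.06 to 0.22 across the 4 comparisons. Scaled by total counts alone, Six4 in extrasynaptic muscle at 26 weeks had a log2 difference of 0.43 and passed (edgeR adjusted p = 0.0275). Eya1 had 27.5, 27.2, 30.1 and 30.5 CPM in perisynaptic SBMA muscle at 26 weeks against 25.9, 10.4, 45.6 and 46.8 CPM in controls. The SBMA libraries lay close together inside the spread of the controls, and the log2 difference was -0.15 ± 0.36 (edgeR adjusted p = 0.823). Within animals 95 to 98 alone it was -0.58 and passed (edgeR adjusted p = 0.00355).

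Vgll2, of the slow programme, and Sox6, a repressor of slow genes, did not pass the test either. Vgll2 ranged from 101 to 160.1 CPM. In extrasynaptic muscle at 15 weeks it had 102, 106, 112 and 109 CPM in SBMA mice against 119.9, 117 and 123 CPM in controls, groups that did not overlap. The log2 difference of -0.16 ± 0.11 was not called (edgeR adjusted p = 0.534), and at 26 weeks it was -0.07 ± 0.10 with overlapping groups. Scaled by total counts alone, that of Vgll2 was 0.03 at 15 and 0.14 at 26 weeks in extrasynaptic muscle. Sox6 had log2 differences of -0.07 to 0.16 across the 4 comparisons, with overlapping groups throughout. Its lowest level, 28.0 CPM, was in the perisynaptic control library that stood apart.

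Ppargc1a showed the largest spread between animals of one group. In perisynaptic muscle at 26 weeks it had 186, 177, 179.6 and 218 CPM in SBMA mice against 314, 78.9, 692 and 772 CPM in controls. The SBMA libraries spanned a narrow band, 3 control libraries were above it and 1 was below it. The coefficient of variation was 9.93% in SBMA and 70.1% in control libraries. The log2 difference of -1.28 ± 0.55 did not pass the test (edgeR adjusted p = 0.142). Without control replicate 2 it was -1.63 and passed (edgeR adjusted p = 0.0177). In extrasynaptic muscle at 26 weeks Ppargc1a had 426, 365, 190.3 and 254 CPM in SBMA mice against 408, 167, 729 and 904 CPM in controls. These groups overlapped widely, and the log2 difference was -0.84 ± 0.48 (edgeR adjusted p = 0.197).

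The controls with high Ppargc1a at 26 weeks were replicates 3 and 4 in both regions, so the 2 libraries of an animal went together. These 2 animals were numbered 95 to 98 with SBMA replicates 3 and 4. Within that run the log2 fold change of Ppargc1a was -1.86 in perisynaptic (edgeR adjusted p = 0.000619) and -1.85 in extrasynaptic muscle (adjusted p = 0.00647). Within animals 79 to 82 it was -0.11 in perisynaptic (adjusted p = 0.95) and 0.47 in extrasynaptic muscle (adjusted p = 0.35). The direction in extrasynaptic muscle thus turned between the runs, and no difference between genotypes held within both. The labels do not say whether a run of numbers was a litter or a batch. At 15 weeks Ppargc1a had 305, 228, 153 and 229 CPM in perisynaptic SBMA muscle against 235, 117 and 676 CPM in controls, a log2 difference of -0.58 ± 0.59 (edgeR adjusted p = 0.953). In extrasynaptic muscle of that age it had 313, 291, 205 and 320.5 CPM in SBMA mice against 298, 119 and 681 CPM in controls. Again 1 control animal was far above the other 2, and it was the same animal in both regions.

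Eya1 varied with Ppargc1a. Pearson's r of their log2 CPM over the 30 libraries was 0.83, and 0.93 for the deviations from the group means. This pair was named because its r was the highest among the pairs of members. Other pairs also had a strong r of the deviations, among them Six4 with Sox6 (0.78), Tbx15 with Esrrg (0.75) and Maf with Vgll2 (-0.73). No r was taken without perisynaptic control replicate 2 at 26 weeks, which was lowest in both Eya1 and Ppargc1a. Within 15 perisynaptic libraries the r of the deviations was 0.96, and within 15 extrasynaptic ones 0.93. The 2 libraries of an animal share their source, so these values describe the libraries and carry no test. The 3 control animals with the highest Ppargc1a also had the 3 highest Eya1 levels in each region, 45.6 to 48.9 CPM in perisynaptic and 43.0 to 47.4 CPM in extrasynaptic muscle, save that SBMA replicate 1 at 26 weeks came between them in extrasynaptic muscle with 44.4 CPM. Eya1 fell out along the runs of numbers as Ppargc1a did, with a log2 difference of 0.70 within animals 79 to 82 (edgeR adjusted p = 0.00858) and -0.51 within animals 95 to 98 (adjusted p = 0.0241) in extrasynaptic muscle.

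**Figure D3:**
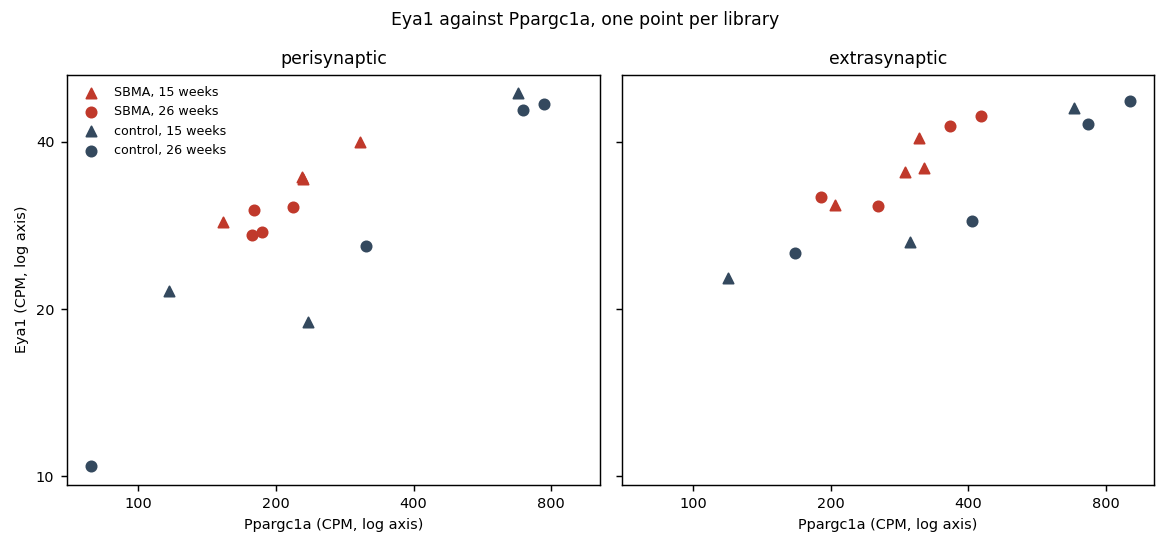
Eya1 (y axis, CPM, log scale) against Ppargc1a (x axis, CPM, log scale), 1 point per library, perisynaptic and extrasynaptic panels, SBMA red and control blue, triangles 15 weeks and circles 26 weeks. Both levels went together, with the control animals at both ends of the Ppargc1a range in perisynaptic muscle (78.9 to 772 CPM).

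The nuclear receptor partners of PGC-1α differed in how much they varied. Esrra kept between 232 and 321 CPM over all libraries, and its coefficient of variation was 4.88% to 11.4% in the 8 groups. That of Ppargc1a was 59.6% to 86.1% in the 4 control groups and 9.93% to 34.4% in the 4 SBMA groups. In perisynaptic muscle at 26 weeks Esrra had 269, 253, 245 and 238 CPM in SBMA mice against 250.4, 264, 271 and 301 CPM in controls, a log2 difference of -0.10 ± 0.10 (edgeR adjusted p = 0.551). Esrrg had 114, 157, 97.0 and 78.8 CPM in extrasynaptic SBMA muscle at 26 weeks against 56.4, 69.3, 59.2 and 108 CPM in controls. The groups overlapped through SBMA replicates 3 and 4 and control replicate 4, and the log2 difference of 0.60 ± 0.25 missed the threshold (edgeR adjusted p = 0.0742). DESeq2 called it (0.62, adjusted p = 0.0395), and the fit without control replicate 4 did too (0.86, edgeR adjusted p = 0.0135). Esrrg too differed between the runs of numbers in extrasynaptic muscle, with 1.12 within animals 79 to 82 (edgeR adjusted p = 0.00636) and 0.09 within animals 95 to 98 (adjusted p = 0.861). Over the 8 fits that left out 1 animal its log2 difference was 0.40 to 0.86, and 2 of them called it. In perisynaptic muscle the log2 difference of Esrrg was 0.40 ± 0.30 (edgeR adjusted p = 0.418).

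The promoters of Ppargc1a and Esrra are shown because these genes had the widest and the narrowest spread of the oxidative regulators. Each is 300 bases around the annotated start, 250 before to 50 after, 5′ to 3′ on the gene's strand, from RefSeq on GRCm38.p6. Capitals mark E-boxes (CANNTG), the site of bHLH factors such as MyoD, and CRE half-sites (TGACG), the site of CREB, each searched on both strands. The windows are chr5:51567676-51567975 (minus strand) and chr19:6921759-6922058 (minus strand).
Ppargc1a: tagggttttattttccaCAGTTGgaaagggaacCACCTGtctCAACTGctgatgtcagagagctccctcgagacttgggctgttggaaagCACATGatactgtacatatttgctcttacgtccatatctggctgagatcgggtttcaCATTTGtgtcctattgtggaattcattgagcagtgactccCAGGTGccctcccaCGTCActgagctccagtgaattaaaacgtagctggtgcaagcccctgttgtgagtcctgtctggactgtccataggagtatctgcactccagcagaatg
Esrra: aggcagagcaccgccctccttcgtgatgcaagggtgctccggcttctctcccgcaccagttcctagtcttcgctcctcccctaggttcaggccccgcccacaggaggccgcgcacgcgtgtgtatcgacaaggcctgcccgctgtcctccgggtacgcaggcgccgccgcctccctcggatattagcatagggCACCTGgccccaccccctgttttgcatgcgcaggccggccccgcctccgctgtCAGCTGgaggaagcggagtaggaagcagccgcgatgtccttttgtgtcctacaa
The Ppargc1a window held 6 E-boxes and 1 CRE half-site, and the Esrra window 2 E-boxes and 0 CRE half-sites. Of 32851 promoter windows of this length in the RefSeq table, 72.3% held an E-box and 20.8% a CRE half-site. Neither window held the ERR half-site AAGGTCA (in 4.72% of promoters), the MEF2 frame (3.69%), the MEF3 site TCAGGTT (4.07%) or the Maf half-site TGCTGAC (4.67%). Promoter entries were found for 6 of the 9 members, and Maf, Tbx15 and Eya1 were not among them.

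Genes of the fast, slow and oxidative programmes were read from lists, which were chosen with earlier results of these data known. The counts are therefore not an independent test of the regulators. Whether the regulators act on each listed gene, including those listed as oxidative target genes, was not tested. Of 21 fast fibre genes, 16 fell and 0 rose in perisynaptic SBMA muscle at 26 weeks (median log2 fold change -0.85), and 19 fell and 1 rose in extrasynaptic muscle (median -1.0). Myh4 averaged 159 ± 46.4 CPM in perisynaptic SBMA muscle and 2603 ± 920.1 CPM in controls (SD, n = 4 each), a log2 fold change of -4.02 ± 0.35 (edgeR adjusted p = 3.33e-06). Myh4 in extrasynaptic muscle had a log2 fold change of -4.17 ± 0.53. Pvalb, the calcium buffer of fast fibres, fell by 2.85 in perisynaptic and 2.95 in extrasynaptic muscle on the log2 scale. Tmod4, a thin filament capping protein, fell by 1.48 and 1.53 in these regions, and Atp2a1, the calcium pump of fast fibres, by 1.16 and 1.22. Fbp2, a muscle fructose-bisphosphatase, was the gene that rose, by 0.44 in extrasynaptic muscle. At 15 weeks 0 of 21 fast genes were called in perisynaptic muscle, and 13 fell and 0 rose in extrasynaptic muscle (median -0.46). At an unadjusted p under 0.05 the perisynaptic count at 15 weeks was 15 lower and 1 higher, and DESeq2 called 7 lower.

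Slow fibre genes were split. Of 13, 2 rose and 5 fell in perisynaptic muscle at 26 weeks (median -0.41), and 2 rose and 5 fell in extrasynaptic muscle (median -0.30). Myh7, the slow myosin heavy chain, fell by 0.88 in perisynaptic muscle (edgeR adjusted p = 0.00532) and by 0.75 in extrasynaptic muscle (adjusted p = 0.0175). The slow troponin I gene Tnni1 fell by 1.43 and 1.56 in these regions, and the slow tropomyosin gene Tpm3 by 1.04 in both. Casq2, the cardiac and slow calsequestrin, rose by 0.84 and 0.89, and Myl6b, a slow myosin light chain, by 0.74 and 0.96. At 15 weeks 0 of 13 were called in either region by edgeR or DESeq2, and an unadjusted p under 0.05 was reached by 0 in perisynaptic and 4 in extrasynaptic muscle.

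Oxidative target genes gave 0 higher and 5 lower of 21 in perisynaptic muscle at 26 weeks (median -0.27) and 0 higher and 12 lower in extrasynaptic muscle (median -0.32). The largest falls were in Fabp3, a fatty acid carrier of muscle, by 1.00 in perisynaptic and 1.06 in extrasynaptic muscle, and in Vegfa, the angiogenic factor, by 0.75 and 0.78. Sdhb, a subunit of succinate dehydrogenase, fell by 0.40 and 0.50, and Ckmt2, the mitochondrial creatine kinase, by 0.44 and 0.55.

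**Figure D4:**
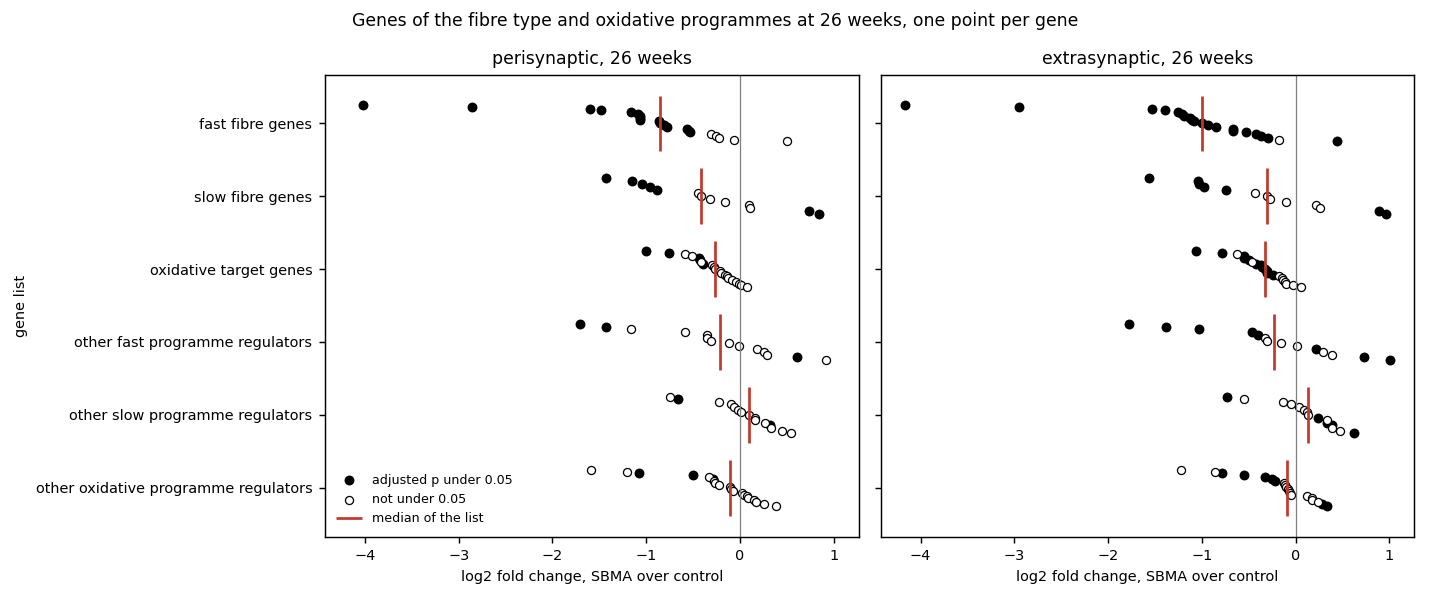
Log2 fold change of SBMA over control at 26 weeks (x axis), 1 point per gene of the 6 lists (y axis), perisynaptic left and extrasynaptic right, filled where the adjusted p was under 0.05, red bars at each list's median. Fast fibre genes lay to the left (medians -0.85 and -1.0), and slow programme regulators around 0 (medians 0.10 and 0.13).

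Other regulators of the same programmes were counted in the same way. Of all genes tested at 26 weeks, 14% were called in perisynaptic muscle (5.97% lower) and 32.2% in extrasynaptic muscle (16.1% lower). Of 14 other fast programme regulators, 1 rose and 2 fell in perisynaptic muscle at 26 weeks, and 3 rose and 5 fell in extrasynaptic muscle. Six2, a relative of Six4, fell by 1.43 in perisynaptic and 1.39 in extrasynaptic muscle on the log2 scale. Tead4, a TEAD factor, rose by 0.61 and 0.73 in these regions. Eya4, a relative of Eya1, rose by 1.01 in extrasynaptic muscle (edgeR adjusted p = 0.00114) and had a log2 difference of 0.92 in perisynaptic muscle that was not called (edgeR adjusted p = 0.0823).

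Of 15 other slow programme regulators, 1 rose and 1 fell in perisynaptic and 4 rose and 1 fell in extrasynaptic muscle at 26 weeks. Taken either way, these counts were near the shares of all genes called, 14% and 32.2%. Nfatc1, a calcineurin-dependent factor of slow fibres, rose by 0.33 in perisynaptic and 0.39 in extrasynaptic muscle, and its relative Nfatc4 fell by 0.67 and 0.73. Of 20 other oxidative programme regulators, 0 rose and 3 fell in perisynaptic and 2 rose and 5 fell in extrasynaptic muscle, also near those shares when taken either way. Ppargc1b, which encodes the PGC-1α relative PGC-1β, averaged 8.68 ± 1.36 CPM in perisynaptic SBMA muscle at 26 weeks and 18.5 ± 2.84 CPM in controls (SD, n = 4 each). Its ranges, 7.41 to 10.6 and 14.7 to 21.4 CPM, did not overlap, and its log2 fold change was -1.08 ± 0.17 (edgeR adjusted p = 0.000676). In extrasynaptic muscle Ppargc1b fell by 0.78 (edgeR adjusted p = 0.00904). Perm1, a muscle regulator downstream of PGC-1 and ERR proteins, fell by 0.50 and 0.55 in these regions, and Nrf1, nuclear respiratory factor 1, by 0.29 and 0.25.

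Some of these counts depended on the scaling. With scaling by total counts alone the median gene shifted by 0.24 in perisynaptic and 0.183 in extrasynaptic SBMA muscle at 26 weeks, and by 0.187 in extrasynaptic muscle at 15 weeks. The split of calls at 26 weeks became 4259 higher and 383 lower in perisynaptic muscle, against 1265 higher and 939 lower with TMM, and 5332 higher and 954 lower in extrasynaptic muscle, against 2502 and 2505. Maf fell under both, with -0.97 and -1.03 in perisynaptic and extrasynaptic muscle under total counts. Oxidative target genes gave 0 higher and 2 lower of 21 in perisynaptic muscle (median -0.024) and 1 higher and 6 lower in extrasynaptic muscle (median -0.104). Fast fibre genes gave 12 lower of 21 in perisynaptic and 16 in extrasynaptic muscle, with 1 higher in each. The other fast programme regulators turned to 5 higher and 2 lower of 14 in perisynaptic and 5 higher and 3 lower in extrasynaptic muscle. The other oxidative programme regulators turned to 5 higher and 1 lower of 20 in perisynaptic and 6 higher and 2 lower in extrasynaptic muscle, and the other slow programme regulators to 5 higher and 0 lower of 15, and 8 higher and 1 lower. Without control replicate 2 the perisynaptic counts at 26 weeks were 17 lower and 1 higher for fast fibre genes, 6 lower and 2 higher for slow fibre genes, 6 lower and 0 higher for oxidative targets, and 6 lower and 0 higher for the other oxidative regulators. With animals 79 to 82 alone, 3 fast fibre genes were lower and 0 higher there (median -0.98). That run gave 0 calls for these other lists. With animals 95 to 98 alone, 16 fast fibre genes were lower and 1 higher (median -0.70). Slow fibre genes then gave 7 lower and 2 higher, oxidative targets 8 lower and 0 higher, and the other oxidative regulators 7 lower and 1 higher.

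None of the 9 members passed the test between ages within a genotype. Between 26 and 15 weeks 0 of 9 were called in SBMA muscle, where 3.95% of perisynaptic and 12.1% of extrasynaptic genes were, and 0 of 9 reached an unadjusted p under 0.05 or were called by DESeq2. In control muscle 0 of 9 members were called, also by DESeq2 or at an unadjusted p under 0.05, and 0% of all genes were called in either region, with 891 perisynaptic and 1036 extrasynaptic genes at an unadjusted p under 0.05, and 40 and 51 genes called by DESeq2. Maf had a log2 difference between 26 and 15 weeks of -0.33 ± 0.23 in perisynaptic and -0.33 ± 0.26 in extrasynaptic SBMA muscle (edgeR adjusted p = 0.535 and 0.429). In controls it was 0.46 ± 0.25 and 0.50 ± 0.28 (adjusted p = 0.918 and 0.823). The interaction of genotype and age called 0 of 9 members, with 0.375% of perisynaptic and 1.73% of extrasynaptic genes called. DESeq2 called 0 of 9 there too, and Maf was the member at an unadjusted p under 0.05 in each region.

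Perisynaptic and extrasynaptic pieces of the same animals were compared with a term for the animal. None of the 9 members passed the test in SBMA or control muscle at either age, where 0.948% of genes were called in SBMA and 1.16% in control muscle at 15 weeks, and 2.07% and 1.18% at 26 weeks. DESeq2 called 0 of 9 in each as well. At an unadjusted p under 0.05 there were 6 members in SBMA muscle at 26 weeks (Six4, Eya1, Sox6, Ppargc1a, Esrra and Esrrg), 3 in control muscle at 26 weeks (Tbx15, Sox6 and Ppargc1a), and 0 at 15 weeks. Ppargc1a was lower in the perisynaptic piece of 4 of 4 SBMA and 4 of 4 control animals at 26 weeks, and of 4 of 4 and 3 of 3 at 15 weeks. Its log2 difference was -0.64 ± 0.17 in SBMA (edgeR adjusted p = 0.0608) and -0.43 ± 0.17 in control muscle (adjusted p = 0.291) at 26 weeks. At 15 weeks it was -0.32 ± 0.17 in SBMA (adjusted p = 0.825) and -0.13 ± 0.19 in control muscle (adjusted p = 0.989). Eya1 in SBMA muscle at 26 weeks had every perisynaptic library below every extrasynaptic one, 27.2 to 30.5 against 30.6 to 44.4 CPM, with a log2 difference of -0.36 ± 0.16 (edgeR adjusted p = 0.189). Without the filter on low counts, edgeR called 4 members in SBMA and 4 in control muscle at 26 weeks (Ppargc1a, Sox6, Esrrg and Eya1 in each), and Ppargc1a in SBMA muscle at 15 weeks, all lower in the perisynaptic piece. That setting also raised all genes called, from 334 to 1833, from 190 to 783 and from 153 to 425 in these comparisons. The log2 difference of Ppargc1a in SBMA muscle at 26 weeks stayed at -0.70 to -0.57 over the alternatives that left no animal out. The interaction of genotype and region called 0 of 9 members at either age, with 0 by DESeq2 and 0 at an unadjusted p under 0.05, with 0% of genes called at 15 weeks and 0.0124% at 26 weeks. At 15 weeks 421 genes had an unadjusted p under 0.05 in that interaction, and DESeq2 called 5.

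Levels of 4 of the 9 members varied with the balance of long and short transcripts in a library. An index of this balance was added after the data were seen. Each gene's log2 CPM was first taken as its deviation from that gene's mean over the 30 libraries. For each library, the index was the median deviation of the longest genes minus the median deviation of the shortest. The longest had an exon length of 6429 bases or more, and the shortest 2430.2 bases or fewer. This index was correlated with each member over the 30 libraries as a description. Pearson's r was 0.85 for Sox6, 0.84 for Six4, 0.75 for Esrrg and -0.67 for Vgll2, and Spearman's rho was 0.45, 0.67, 0.65 and -0.56 in the same order. Pearson's r for Eya1 was 0.58, and 0.28 without the 1 library at the low end of the index. For Ppargc1a it was 0.27, for Tbx15 0.07, for Maf -0.11 (rho -0.31) and for Esrra -0.15. The index was lowest, at -0.70, in the perisynaptic control library that stood apart. Without that library r was 0.72 for Sox6, 0.76 for Six4, 0.57 for Esrrg and -0.63 for Vgll2, and without the 2 libraries farthest from the median 0.66, 0.73, 0.59 and -0.53. It ranged from -0.26 to 0.16 in perisynaptic SBMA and -0.70 to 0.08 in perisynaptic control libraries at 26 weeks, and from 0.15 to 0.24 in extrasynaptic SBMA and -0.32 to 0.10 in extrasynaptic control libraries. In extrasynaptic muscle of both ages the SBMA libraries lay above the controls on this index. Its part in the values of Six4, Sox6, Esrrg and Vgll2 was not tested. Six4 (10855 bases) and Sox6 (14832 bases) were themselves among the longest genes of the index, as were Maf, Eya1 and Ppargc1a. Vgll2 (1650 bases) was among the shortest.

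**Figure D5:**
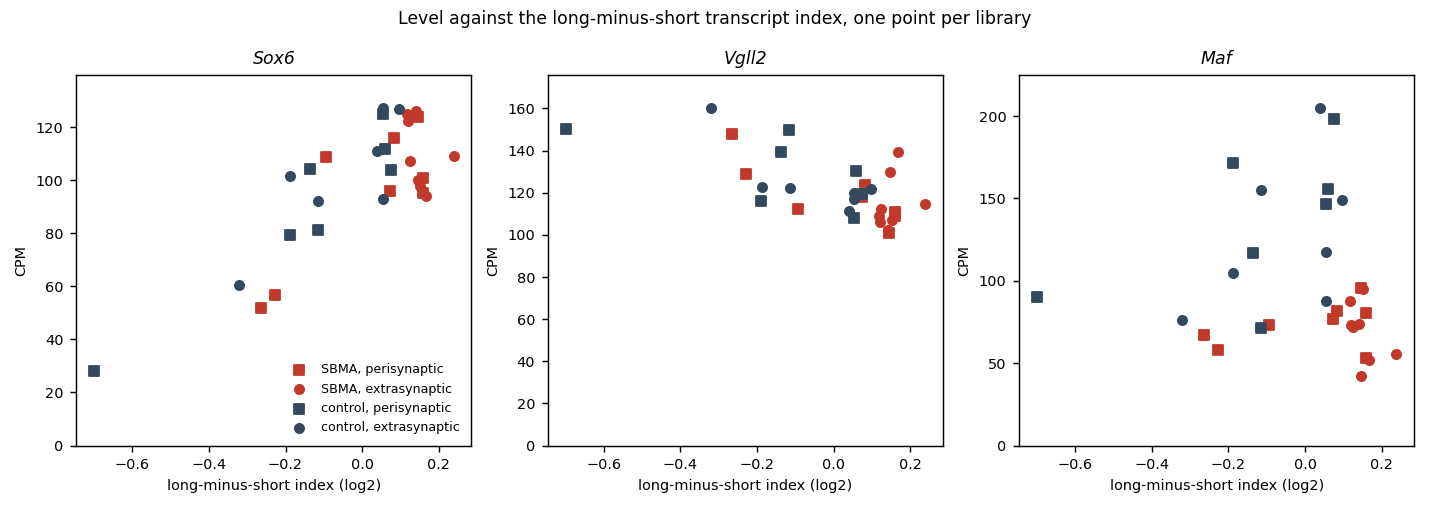
Level in CPM (y axis) of Sox6, Vgll2 and Maf against the long-minus-short transcript index (x axis, log2), 1 point per library, SBMA red and control blue, squares perisynaptic and circles extrasynaptic. Sox6 was higher where the index was higher (r 0.85), Vgll2 was lower there (r -0.67), and r for Maf was -0.11. Without the library at the far left r was 0.72 for Sox6 and -0.63 for Vgll2.

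The genes whose log2 CPM was most like that of each member over the 30 libraries were looked up among 13106 candidates. Sox6 had the closest, Erc1, Rmnd5a and Tnks2, each at r = 0.97, and Esrrg had Arfgef2 at 0.93. Tbx15 was most like Ivns1abp at 0.91, Kcnc1 at 0.89 and Mylk4 at 0.88. Maf was most like Plekhf1 at 0.85, Unc13c at 0.85 and Osmr at 0.84, and Ppargc1a like Kdm4a at 0.89. Six4 was most like Zc3h12c at 0.89, Eya1 like Ranbp6 at 0.88, Vgll2 like Napa at 0.86 and Esrra like Mul1 at 0.84.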

How the data were processed

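Poly(A) RNA-seq libraries were made with a stranded mRNA kit, per the labels' protocols. The deposited counts, whole reads per gene, were made with featureCounts on mm10, per the submitters' processing notes. Not given in the sources used here are the aligner, the release of the annotation, and whether counting used strand. Of 33076 gene IDs, 33064 matched GENCODE vM21 and 12, with 0.00171% of counts, did not.

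Low genes were removed by filterByExpr, with a minimum count of 10 and a minimum total of 15, and the rest were scaled with TMM, and tested with edgeR 4.0.16 in R 4.3.3 (quasi-likelihood, 2-sided, Benjamini-Hochberg adjustment over all genes tested, called under 0.05). SBMA and control, and the ages, were compared within a region (4 group means, 15 libraries, 11 residual degrees of freedom). Regions were compared in a fit of 30 libraries with a term for the animal, since both libraries of an animal carry its number in the labels; their deviations correlated over 0.1 in 6 of 7 animals at 15 weeks and 8 of 8 at 26 weeks. Errors beside fold changes are SE, derived from the fold change and its F statistic. Levels are CPM. Likeness and correlations used log2 CPM with a prior count of 2 and genes with a mean of at least 1 CPM.

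The members and lists were chosen with earlier results of these data known. Named beside the members were up to 4 genes per list with the smallest p in each comparison of SBMA and control, 6 genes fixed by name (some are not reported here), and 3 genes per member by likeness. Alternatives were DESeq2 1.42.0, RLE and total-count scaling, no filter, blocks for replicate number and for run of animal numbers, each run alone, only the groups compared, no animal term, and leaving out each animal. Steps were tested on simulated data. The labels give separate animals, so the p-values measure the spread between animals.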

Additional observations from a re-analysis of the deposited data

Results flagged for a closer look

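Within groups of 4, 4 of 78 sets of CPM values had 1 library set apart from the others by a gap test (Dixon's ratio above its 95% critical value); about 1 in 20 sets would by chance. For Six4, perisynaptic control replicate 2 at 26 weeks had 21.6 CPM where the other 3 had 42.0 to 46.0 CPM. For Maf, extrasynaptic SBMA replicate 4 at 15 weeks had 87.8 CPM, above 72.2 to 73.8 CPM in the others. For Myh4, extrasynaptic SBMA replicate 4 at 26 weeks had 372 CPM, where the others had 106 to 140.3 CPM. Perisynaptic SBMA replicate 3 at 15 weeks was high for Myh7, with 2221 CPM against 1782 to 1829.6 CPM in the others.

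For 9 effects among the listed genes, the difference between SBMA and control muscle itself differed between 26 and 15 weeks in an interaction test (edgeR, adjusted over all genes tested). This interaction called 0.375% of all genes tested in perisynaptic and 1.73% in extrasynaptic muscle. In extrasynaptic muscle the log2 effect at 26 weeks was lower than that at 15 weeks by the following amounts for 5 fast fibre genes and a regulator. Pvalb had an interaction of -1.49 ± 0.27 (SE, adjusted p = 0.013), Tmod4 of -1.09 ± 0.14 (adjusted p = 0.0013), and Myh2, the IIa myosin heavy chain, of -1.08 ± 0.19 (adjusted p = 0.00975). Myoz1, a Z-disc protein of fast fibres, had one of -0.62 ± 0.13 (adjusted p = 0.0245), and Mylpf, the fast regulatory light chain, of -0.54 ± 0.13 (adjusted p = 0.0469). For Dach2, a transcriptional cofactor, it was -1.45 ± 0.31 (adjusted p = 0.0285). In perisynaptic muscle the interaction was -2.78 ± 0.47 for Myh4 (adjusted p = 0.0169), -1.07 ± 0.15 for Tmod4 (adjusted p = 0.0107) and -1.29 ± 0.23 for the slow gene Tnni1 (adjusted p = 0.0174).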

How the results depend on the processing

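Maf kept its call in extrasynaptic muscle at 26 weeks under 9 of 9 alternatives that left no animal out (adjusted p 9.2e-06 to 0.049) and in perisynaptic muscle under 8 of 9 (7.36e-06 to 0.23, lost with animals 79 to 82 alone). Tbx15 kept its extrasynaptic call under 6 of 9 (0.000361 to 0.0619). The members called in perisynaptic muscle at 26 weeks, 1 as reported, were 2 with the run of animal numbers as a block, 0 with animals 79 to 82 alone, 4 with animals 95 to 98 alone, and 1 to 3 when each animal was left out (3 without control replicate 2, with Tbx15 and Ppargc1a added to Maf). Between regions, 0 as reported, they were 1 (SBMA, 15 weeks), 4 (SBMA, 26 weeks) and 4 (control, 26 weeks) without the filter on low counts, and 0 to 2 in SBMA muscle at 26 weeks when each animal was left out. Replicate numbers were not used to pair the animals in the fits as reported. Deviations of same-numbered SBMA and control animals correlated over 0.1 in 3 of 4 pairs at 26 weeks in each region. The mean r there was 0.29 in perisynaptic and 0.13 in extrasynaptic muscle. At 15 weeks 0 of 3 pairs did so in each region. With a replicate block the genes called were 2105 in perisynaptic and 4557 in extrasynaptic muscle at 26 weeks, the interactions with age had 23 and 103, and the members called stayed at 1 and 2.

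The log2 differences that reversed, each of a member not called as reported, were as follows. In perisynaptic muscle at 15 weeks the replicate block gave -0.034 for Six4 and -0.022 for Sox6, and the run block -0.070 for Esrra and -0.023 for Esrrg. At 26 weeks animals 79 to 82 alone gave perisynaptic values of 0.59 for Eya1, 0.022 for Sox6, 0.052 for Vgll2 and 0.020 for Esrra, and 0.47 for extrasynaptic Ppargc1a; animals 95 to 98 alone gave -0.51 for Eya1 and -0.18 for Sox6 in extrasynaptic muscle. Total-count scaling gave 0.14, 0.20, 0.21 and 0.16 for Eya1, Sox6, Vgll2 and Esrra in perisynaptic muscle at 26 weeks, 0.14 and 0.12 for Vgll2 and Esrra in extrasynaptic muscle at 26 weeks, 0.032 and 0.10 for them at 15 weeks, and 0.038 for Sox6 between regions in controls at 15 weeks. Leaving out each animal turned the sign in perisynaptic muscle at 15 weeks for Six4 (-0.11 to 0.20), Eya1 (-0.034 to 0.76), Sox6 (-0.05 to 0.26), Ppargc1a (-1.0 to 0.38) and Esrra (-0.085 to 0.068), and at 26 weeks for Six4 (-0.080 to 0.26), Eya1 (-0.44 to 0.085), Sox6 (-0.36 to 0.12) and Vgll2 (-0.14 to 0.036). In extrasynaptic muscle it did so at 15 weeks for Six4 (-0.016 to 0.34), Eya1 (-0.022 to 0.54), Ppargc1a (-0.79 to 0.44) and Esrrg (-0.067 to 0.52), and at 26 weeks for Eya1 (-0.092 to 0.21), Sox6 (-0.14 to 0.19) and Vgll2 (-0.14 to 0.049). Between regions in controls at 15 weeks Eya1 spanned -0.27 to 0.011 and Sox6 -0.11 to 0.0058. The causes were not tested.

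Counts of all genes called at 26 weeks ran, with no animal left out singly, from 72 (animals 79 to 82 alone) to 4642 (total counts) in perisynaptic muscle, with 2204 as reported, and from 1616 (animals 95 to 98 alone) to 6286 (total counts) in extrasynaptic muscle, with 5007 as reported. At 15 weeks they ran from 22 to 129 (33 as reported) and from 144 to 2356 (190 as reported). The interaction with age had 23 to 190 and 103 to 649 (59 and 268 as reported). SBMA muscle between ages had 542 to 1336 and 1519 to 2371 (621 and 1885 as reported). Between regions the counts were 121 to 425 (SBMA) and 118 to 568 (control) at 15 weeks, with 153 and 188 as reported, and 161 to 1833 and 135 to 783 at 26 weeks, with 334 and 190 as reported, the highest without the filter. Leaving out each animal gave 6 to 20 and 81 to 189 at 15 weeks, 27 to 121 (121 without control replicate 2 at 26 weeks) and 117 to 342 for the interaction with age, and 344 to 536 and 1088 to 2087 for SBMA muscle between ages. Between regions it gave 76 to 134 (SBMA) and 59 to 174 (control) at 15 weeks, and 147 to 1594 (1594 without SBMA replicate 4) and 99 to 170 at 26 weeks. The alternatives for the list counts were chosen after seeing the data. Groups of 3 or 4 animals limit what differences could be seen.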

Other observations

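Between 26 and 15 weeks, fast fibre genes fell in SBMA muscle. Of 21, 8 fell and 0 rose in perisynaptic and 14 fell and 0 rose in extrasynaptic muscle, where 3.95% and 12.1% of all genes were called. Myh4 averaged 159 ± 46.4 CPM at 26 weeks and 2926 ± 817 CPM at 15 weeks in perisynaptic SBMA muscle (SD, n = 4 each), a log2 fold change of -4.19 ± 0.35 (SE, edgeR adjusted p = 2.12e-05). Pvalb fell by 2.16 in perisynaptic and 2.04 in extrasynaptic SBMA muscle on the log2 scale, and Tmod4 by 1.03 in both. Of 13 slow fibre genes, 1 rose and 5 fell in perisynaptic and 2 rose and 5 fell in extrasynaptic SBMA muscle; Myl6b rose by 1.05 and 1.15, and Tnni1 fell by 1.19 and 1.31. Among the other regulators, Six2 was lower at 26 than at 15 weeks in SBMA muscle, by 1.24 in perisynaptic and 1.09 in extrasynaptic muscle. Ppargc1b was lower by 1.02 and 0.80 in these regions. The ages came from separate animals in different runs of animal numbers, so age and run cannot be told apart. In control muscle 0 of 21 fast and 0 of 13 slow genes were called between the ages by edgeR, while 4 fast genes in perisynaptic and 5 in extrasynaptic muscle reached an unadjusted p under 0.05, all lower at 26 weeks. Myh4 there had log2 differences of -1.41 ± 0.33 and -1.37 ± 0.50 (edgeR adjusted p = 0.358 and 0.6).

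Markers of satellite cells, the stem cells of muscle, were higher in SBMA muscle at 26 weeks. Their sum over 4 genes averaged 26.5 ± 1.71 CPM in perisynaptic SBMA muscle against 17.2 ± 3.07 CPM in controls, and 28.7 ± 4.92 CPM in extrasynaptic SBMA muscle against 17.3 ± 3.14 CPM in controls (SD, n = 4 each). In extrasynaptic muscle 4 of 4 rose, among them Pax7, the defining factor of these cells, by 1.04 and Myf5 by 1.0 on the log2 scale. In perisynaptic muscle Myf5 rose by 0.82 and Pax7 by 0.81, and 2 of 4 were not called. Of all genes tested at 26 weeks, 1265 of 15735 were called higher in perisynaptic and 2502 of 15526 in extrasynaptic SBMA muscle. The part of these cells in the values of the 9 regulators was not tested.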
